A study of Mus musculus with 2 samples.

Results

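Mature neutrophils marked by Retnlg were described in cells sorted from the periosteum, the fibrous layer that covers bone, of mouse femurs and tibias. A cell was a member when at least 2 of 6 genes (Retnlg, Stfa2l1, Asprv1, Clec4d, Hcar2, and Cxcl2) each had 2 or more unique molecular identifiers (UMIs, each standing for 1 captured transcript) while Ltf and Elane each stayed below 5 UMIs. Only barcodes with at least 500 genes, at least 500 UMIs, and at most 10% mitochondrial UMIs were used. These gates found 287 of 6276 kept cells in library 1 (4.57%, 95% exact binomial interval 4.07 to 5.12) and 46 of 2893 in library 2 (1.59%, 1.17 to 2.12), or 333 of 9169 cells in all. The data are 2 libraries of 10x 3′ single-cell RNA sequencing, replicates 1 and 2 of a single condition. Both came from C57BL6 mice labelled WT and 4 weeks old, without any treatment, and the collagenase-released cells had been sorted on CD45, CD31, Ter-119, and the dead-cell dye DAPI to collect nonhematopoietic and nonendothelial cells. The number of mice behind a library is not named in the sources used here, so a p-value across the 2 libraries measures a spread that may be technical. The members were set beside 2 other classes, 620 and 69 immature neutrophils (Ltf at 5 UMIs or more, Elane below 5) and 119 and 18 monocytes (at least 1 UMI of Csf1r and of Ly6c2, in no other class), in libraries 1 and 2.

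Neutrophils are short-lived phagocytes that develop in bone marrow and make their granules in waves, first primary granules with Mpo and Elane, then specific granules with Ltf, Camp, Ngp, and Lcn2, and last gelatinase granules and secretory vesicles. The transcripts of each wave fade as the next one starts, so that a late neutrophil has lost Ltf and gained receptors such as Cxcr2 and Csf3r. Retnlg encodes a secreted resistin-like protein, Stfa2l1 a stefin A-type protease inhibitor, Asprv1 an aspartic protease, Clec4d a C-type lectin receptor, Hcar2 a receptor for hydroxycarboxylic acids, and Cxcl2 a chemokine that attracts neutrophils through CXCR2. Monocytes come from a shared progenitor and carry the receptor encoded by Csf1r.

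The promoters of 3 of the marker genes are shown because these genes chose the cells. Each run is the 250 bases before the RefSeq start on GRCm38.p6, 5′ to 3′ on the plus strand, and capitals mark a match to TTNNGCAA or its reverse complement TTGCNNAA, the core of the sites read by C/EBP factors of the myeloid lineage.
Retnlg (chr16:48872358-48872607): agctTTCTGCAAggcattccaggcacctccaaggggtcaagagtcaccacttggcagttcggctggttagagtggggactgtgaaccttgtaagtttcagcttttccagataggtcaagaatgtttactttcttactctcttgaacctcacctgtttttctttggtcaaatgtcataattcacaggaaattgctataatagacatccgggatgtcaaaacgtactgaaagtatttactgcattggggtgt
Stfa2l1 (chr16:36156561-36156810): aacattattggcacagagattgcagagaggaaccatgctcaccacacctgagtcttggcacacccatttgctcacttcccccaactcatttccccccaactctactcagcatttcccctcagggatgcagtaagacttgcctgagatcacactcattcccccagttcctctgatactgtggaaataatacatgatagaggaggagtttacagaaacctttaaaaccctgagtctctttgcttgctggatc
Clec4d (chr6:123261857-123262106): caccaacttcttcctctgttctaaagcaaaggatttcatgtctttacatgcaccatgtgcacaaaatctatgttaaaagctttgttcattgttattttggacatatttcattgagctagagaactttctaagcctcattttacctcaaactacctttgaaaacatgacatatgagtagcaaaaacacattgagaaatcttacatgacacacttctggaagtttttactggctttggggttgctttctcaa
The Retnlg window held 1 match, 246 bases before the start, and the other 2 windows held none. Over all genes, 2582 of 27025 such windows (9.55%) held the motif, against 1 of the 5 rule genes with a promoter in the table and 3 of 10 genes of the specific granule list. A match describes letters only. In the GENCODE M21 annotation of GRCm38, the protein-coding gene Retnlg (ENSMUSG00000022651) lies at chr16:48872621-48874496 on the plus strand, and a UMI counts a transcript of the whole gene.

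Library 1 held 9932 barcodes and 100808649 UMIs, and library 2 held 3659 barcodes and 33306452 UMIs. Members had fewer UMIs per cell than either class set beside them. Their medians were 4302 and 4020 UMIs in libraries 1 and 2 (range over both 1513 to 68187), against 9607.5 and 10173 in immature neutrophils and 12679 and 9649 in monocytes. All members together gave 1838143 and 344925 UMIs. The median number of genes was 1177 and 996, and the median mitochondrial share was 0.40% and 0.30%. The libraries shared 8 barcodes, none of them a member. Levels below are in CPM (a gene's UMIs in 1000000 UMIs of the class in that library), always with library 1 first, and intervals cover counting error only.

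Retnlg was the most abundant of the 6 rule genes. At 2 UMIs or more it was present in 266 of 287 and 34 of 46 members, at 25386 and 14742 CPM, against 5549.6 and 4929 CPM in immature neutrophils. Monocytes had 12.2 and 871 CPM, the second value resting on 206 UMIs of 1 cell. B cells (Cd79a at 2 UMIs or more), taken as the background from free RNA, had 32.9 and 1.12 CPM. Of the 777 Retnlg UMIs behind the first of these values, 416 fell in 1 cell, so it overstates that background. After each cell had been thinned to 1000 UMIs, Retnlg was expected in 89.3% and 76.0% of members, 56.8% and 55.7% of immature neutrophils, 1.4% and 5.6% of monocytes, and 2.0% and 0.2% of B cells. These values chose the members and are a description.

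The other 5 rule genes were present in fewer members than Retnlg in library 1, whereas Clec4d and Hcar2 were present in more of them in library 2. Clec4d reached 2 UMIs in 232 and 40 members (570.1 and 690.0 CPM), Hcar2 in 177 and 36 (580.5 and 644 CPM), and Asprv1 in 155 and 14 (832 and 333 CPM). Stfa2l1 reached it in 107 and 14 members (697 and 397 CPM) and Cxcl2 in 71 and 28 (643 and 3725 CPM). Members thus differed in which of the genes they carried, and Cxcl2 was present in a larger part of the members in library 2 than in library 1. When members were chosen by the other 5 genes alone, Retnlg was present in 90.8% of them (86.3 to 94.2) and 72.7% (57.2 to 85.0), Clec4d in 78.1% and 85.4%, Hcar2 in 59.4% and 76.2%, Asprv1 in 52.3% and 28.9%, Stfa2l1 in 36.4% and 30.4%, and Cxcl2 in 22.0% and 52.6%. Immature neutrophils carried Retnlg in 73.4% and 69.6% of cells, so in library 2 the members were close to them. They carried each of the other 5 genes in a smaller share than members did, in both libraries. Of monocytes, 5.0% and 33.3% carried Clec4d. Exactly 2 rule genes were present in 67 and 10 members, 3 in 83 and 11, 4 in 72 and 13, 5 in 53 and 11, and all 6 in 12 and 1.

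Just inside and just outside the thresholds, cells differed in depth as well as in these genes. The 67 and 10 members with exactly 2 rule genes had medians of 4869 and 9624.5 UMIs, of which 1210 and 3 fell on 12 neutrophil genes described next. The 214 and 57 cells with exactly 1 rule gene had medians of 31914 and 21288 UMIs, of which 14 and 2 were neutrophil UMIs. On the Ltf side, 240 and 40 members had no Ltf UMI and 11 and 1 had 3 or 4, while 6 and 0 cells with 2 rule genes had 5 or 6 Ltf UMIs and were counted as immature. Of the immature neutrophils, 183 and 16 carried 2 or more rule genes.

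The lineage of the members was read from 2 lists without any rule gene. The neutrophil list had 12 genes (S100a8, S100a9, Csf3r, Cxcr2, Ly6g, Fpr1, Trem1, Il1r2, Mxd1, Lcn2, Mmp9, and Cebpe) and the monocyte and macrophage list had 16 genes, among them Ccr2, Ms4a6c, F13a1, Irf8, Ctss, Fn1, and Csf1. In 276 of 287 members of library 1 (96.2%, 93.2 to 98.1) and 40 of 46 of library 2 (87.0%, 73.7 to 95.1), neutrophil UMIs outnumbered monocyte UMIs. This was so for 620 of 620 and 69 of 69 immature neutrophils and for 4 of 119 and 1 of 18 monocytes. The neutrophil list took a median of 26.7% and 18.1% of a member's UMIs, below the 32.8% and 36.4% of immature neutrophils and far above the 0.061% and 0.036% of monocytes. The monocyte list took 0.023% and 0.069% in members and 0.674% and 0.537% in monocytes. S100a8, S100a9, and Lcn2 are the most abundant genes of the list, and without them 93.0% and 78.3% of members still had more neutrophil than monocyte UMIs. By these markers the label held for most members and not for all, and the share was tied to the gate. Retnlg was at 2 UMIs or more in 265 of those 276 members and 34 of those 40. Of members with only Clec4d, Hcar2, and Cxcl2 at 2 UMIs, 3 of 13 and 4 of 10 had more neutrophil than monocyte UMIs. The share over all members is therefore a description too.

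**Figure D1:**
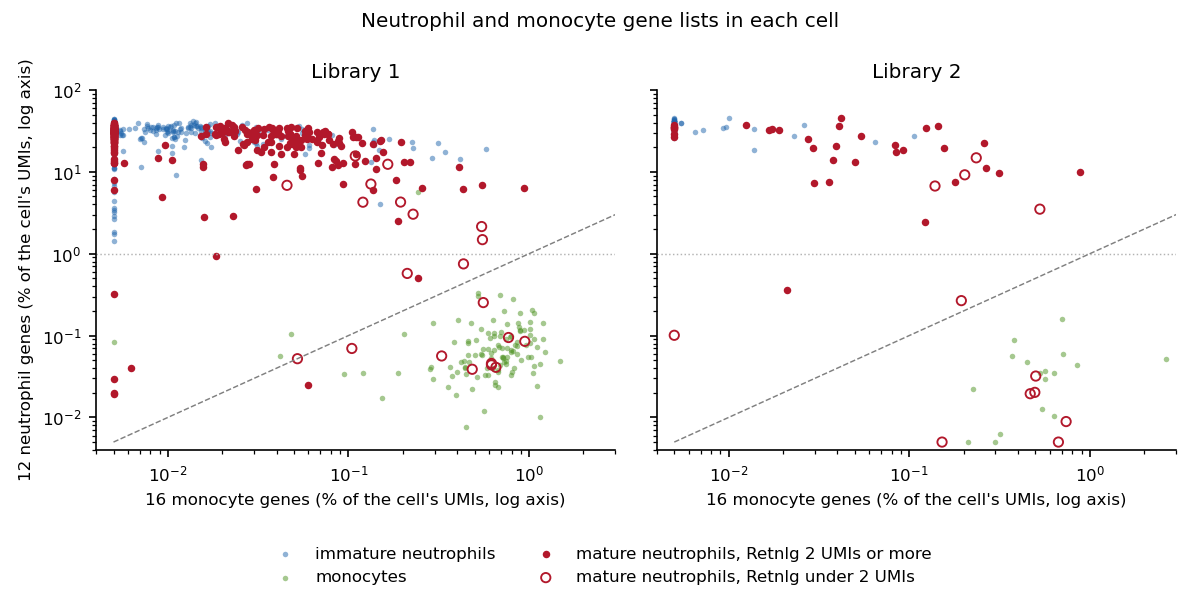
Share of each cell's UMIs on the 12 neutrophil genes (vertical log axis, %) against the 16 monocyte and macrophage genes (horizontal log axis, %), 1 panel per library, with each point a cell coloured by class and the dashed line marking equal shares. Most members lie with the immature neutrophils, and 20 and 9 members lie below 1% on the vertical axis.

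The members fell into 2 unequal sets on the neutrophil list, as the plot of list shares by cell shows. At least 1% of the UMIs came from the 12 genes in 267 and 37 members, called neutrophil-rich here, of which 1 and 0 lay under 2%, while 4 and 0 of the members below 1% had 0.5% or more. The other 20 and 9 members had medians of 19909.5 and 10264 UMIs per cell and so made up 28.9% and 51.0% of all member UMIs. This division was made after the values had been seen. Because it was made on the 12 genes, the neutrophil-rich set gives no support for a neutrophil lineage, which was read over all members. The choice also acts on the values of these 12 genes in every later comparison of that set. It acts on the monocyte list as well, since members left out by it carried monocyte genes. A call of a gene of either list in that set alone is therefore a description. Among members with Retnlg at 2 UMIs or more, 265 of 266 and 34 of 34 had more neutrophil than monocyte UMIs, and among those with 2 of Retnlg, Stfa2l1, and Asprv1, 193 of 193 and 22 of 22 did. Retnlg reached 2 UMIs in 2 of 119 and 1 of 18 monocytes, and Stfa2l1 and Asprv1 in 0 of them. Shares in subsets chosen on such genes were therefore close to fixed in advance and are a description.

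The 20 and 9 members under 1% carried genes of several other lineages, read after their values had been seen. In 7 and 2 of them the monocyte gate was also passed, as it was in 19 and 4 neutrophil-rich members. At least 5 UMIs of a list of basophil, eosinophil, and mast cell genes were present in 2 and 2 of them, including 1 cell of library 1 with 20115 UMIs, 737 of them Mcpt8 and 904 Prss34, both basophil proteases. A cell with 40158 UMIs had 4250 Col1a1 and 1207 Bglap UMIs, genes of bone-forming cells, beside 2 Retnlg and 20 Cxcl2 UMIs. The deepest member, with 68187 UMIs, had 298 Car1 and 247 Car2 UMIs, genes of erythroid and basophil precursors, beside 2 Retnlg and 50 Cxcl2 UMIs. In library 2, a cell with 38169 UMIs had 1644 Sparc and 1129 Col2a1 UMIs, genes of skeletal matrix, and a cell with 33693 UMIs had 134 C1qa and 551 Apoe UMIs, genes of macrophages. Retnlg reached 2 UMIs in 8 and 1 of these cells. Doublets were not called, so the number of barcodes that held more than 1 cell was not tested. Counts of called genes below are given for all members and for the neutrophil-rich ones, because these few members under 1% weigh in the sums. They were set apart by the neutrophil share and not by depth, and the shallowest had 3308 and 4117 UMIs. Where 1 fold change is given for a called gene, it is that of all members, and the gene was called in the same direction over neutrophil-rich members unless stated.

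The RNA of the antigens used for sorting was present in members. Ptprc, which encodes CD45, had at least 1 UMI in 281 of 287 and 41 of 46 members (769 and 339 CPM). B cells had 116 and 93.5 CPM, but they are hematopoietic cells too, so for this gene they are no background. Pecam1, which encodes CD31, was found in 7 and 1 members. Hemoglobin gene Hbb-bs was at 21759 and 186 CPM in members and 12251 and 4544 CPM in B cells. The study followed Lrp1 and Anpep, which encodes CD13, in periosteal stem cells as RNA and as surface protein. Its mouse clusters were made after hematopoietic lineage cells had been filtered out. The values given here are RNA and do not measure the proteins. In neutrophil-rich members both genes were at or near 0, with Lrp1 at 6.12 and 23.7 CPM in 3 and 2 cells and Anpep at 0 in both libraries. Over all members Lrp1 was at 18.0 and 69.6 CPM. Against immature neutrophils, by the test described next, its log2 fold change was 3.02 (adjusted p = 0.04997) over all members and 1.28 (adjusted p = 0.27) over neutrophil-rich ones.

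For the tests, UMIs were summed over the cells of each class in each library and compared across the 2 libraries (n = 2 per class) with edgeR's quasi-likelihood test and Benjamini-Hochberg adjustment over all genes tested. The fit also held 203 and 31 promyelocytes (Elane at 5 UMIs or more), so that 4 classes shared 1 estimate of the spread. It held no term for the library. A fit with such a term, called the replicate block, was run over all members only. The 10 genes used by any gate were taken out of the tested table. The gates nevertheless fixed that the classes differ, so genes that vary with the gate genes in the same cells were bound to differ, and an adjusted p below 0.05 says only that a difference was large against the spread between the 2 libraries. All log2 fold changes are members over the class named, positive where members were higher, and cover all members where no set is named. Member levels in CPM are those of the neutrophil-rich set beside immature neutrophils and those of all members beside monocytes, unless another set is named. The median over all tested genes was 0.11 against immature neutrophils and -0.02 against monocytes for all members, and -0.23 and -0.41 for neutrophil-rich members, so a value is read against that shift.

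Against immature neutrophils, the question was how far the members had moved along neutrophil maturation. Members had less RNA of specific granule and cell cycle genes and more RNA of chemokines, cytokines, their receptors, and immediate early genes. Of 9042 genes, 216 were higher in all members (2.39%) and 129 were lower (1.43%). With neutrophil-rich members, 391 of 8571 genes were higher (4.56%) and 335 lower (3.91%), and 138 of the higher and 94 of the lower genes were called both ways. Members with 2 of Retnlg, Stfa2l1, and Asprv1 gave 2.45% of genes higher and 1.79% lower, and those with Retnlg at 2 UMIs or more gave 1.25% and 0.788%. With a replicate block for the library, 536 genes were higher and 350 lower in all members.

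Specific granule genes were lower together. Of 12 listed genes, 6 were lower and 0 higher, both in all members and in neutrophil-rich ones, with a median log2 fold change of -2.56 and -1.69. Camp, the precursor of the antimicrobial peptide cathelicidin, was at 558 and 733 CPM in all members and 762 and 1487 CPM in neutrophil-rich ones, against 44084 and 60236 CPM in immature neutrophils (log2 fold change -6.71, SE 0.44, adjusted p = 0.0011, and neutrophil-rich -5.81, SE 0.50, adjusted p = 0.0014). The 2 classes were far apart in each library. B cells had 57.8 and 7.04 CPM of Camp, so that the member level was above the background of free RNA.

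Ngp, which encodes neutrophilic granule protein, was at 1944 and 4797 CPM in neutrophil-rich members and 34803 and 61726 CPM in immature neutrophils (log2 fold change -5.08, SE 0.50, adjusted p = 0.0045 over all members, and neutrophil-rich -4.15, SE 0.53, adjusted p = 0.0042). Chil3, a chitinase-like protein of immature neutrophils, was at 51.2 and 11.8 CPM against 6314 and 5311 CPM (log2 fold change -6.62, SE 0.81, adjusted p = 0.011 over all members, and neutrophil-rich -7.34, SE 0.94, adjusted p = 0.0042). Orm1, an acute-phase glycoprotein, had 0 UMIs in members of either library against 219.9 and 283 CPM in immature neutrophils, at least 165-fold lower when set against a floor of 3 UMIs over all members. Lcn2, an iron-siderophore binding protein, differed less, with 5532 and 6219 CPM against 15677 and 20880.3 CPM (log2 fold change -2.75, SE 0.49, adjusted p = 0.026, and neutrophil-rich -1.84, SE 0.49, adjusted p = 0.045). Cybb, the catalytic subunit of the NADPH oxidase, was also lower at -2.75 (adjusted p = 0.012). It is also a gene of the 6-member NADPH oxidase list, where Cyba was lower over all members (-1.28, adjusted p = 0.046) and not over neutrophil-rich ones (-0.97, adjusted p = 0.10). All of these were lower in both libraries.

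The list had members that did not follow. Mmp8, a neutrophil collagenase, was at 1723 and 888 CPM in neutrophil-rich members and 736 and 403 CPM in immature neutrophils, and its log2 fold change was 0.27 (adjusted p = 0.84) over all members and 1.14 (adjusted p = 0.22) over neutrophil-rich ones. For Cd177, a neutrophil surface glycoprotein, the values were -2.37 (adjusted p = 0.074) and -1.55 (adjusted p = 0.14), and with the replicate block it was lower over all members, at -2.49 (adjusted p = 0.0039). Cebpe, the transcription factor of the specific granule stage, was lower with the granule genes, at 22.2 and 0 CPM in neutrophil-rich members against 536 and 619.8 CPM (log2 fold change -5.90, SE 0.68, adjusted p = 0.0085 over all members, and neutrophil-rich -5.23, SE 0.76, adjusted p = 0.0057).

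The 10 genes with the largest called decrease and at least 100 CPM in immature neutrophils of both libraries were Orm1, Fcnb, Camp, Chil3, Cebpe, Ngp, Lta4h, Lbp, Serpinb1a, and Ms4a3. Fcnb, a secreted pattern-recognition lectin, had a log2 fold change of -7.54 (adjusted p = 0.012). The leukotriene A4 hydrolase gene Lta4h was at -4.48 (adjusted p = 0.013), the lipopolysaccharide-binding protein gene Lbp at -4.32 (adjusted p = 0.0056), the serpin Serpinb1a, which inhibits neutrophil proteases, at -4.29 (adjusted p = 0.0045), and Ms4a3, a gene of granulocyte precursors, at -4.05 (adjusted p = 0.042). All 10 were lower also in neutrophil-rich members.

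Primary granule RNA was low in both classes, and of 7 tested genes 2 were higher and 1 lower in all members. Ctsg was called higher in all members and was not called in neutrophil-rich ones, where Ctsc, the protease that activates granule serine proteases, was higher and Ms4a3 lower. Of 11 gelatinase granule and secretory vesicle genes, 1 was higher in all members (Slc11a1, a metal transporter) and 2 in neutrophil-rich ones (Slc11a1 and Adam8, a membrane protease), with 0 lower. Mmp9, the gelatinase itself, was at 1539 and 924 CPM in neutrophil-rich members and 810.3 and 643 CPM in immature neutrophils, with a log2 fold change of -0.22 (adjusted p = 0.83) over all members and 0.67 (adjusted p = 0.35) over neutrophil-rich ones, which does not pass the threshold.

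**Figure D2:**
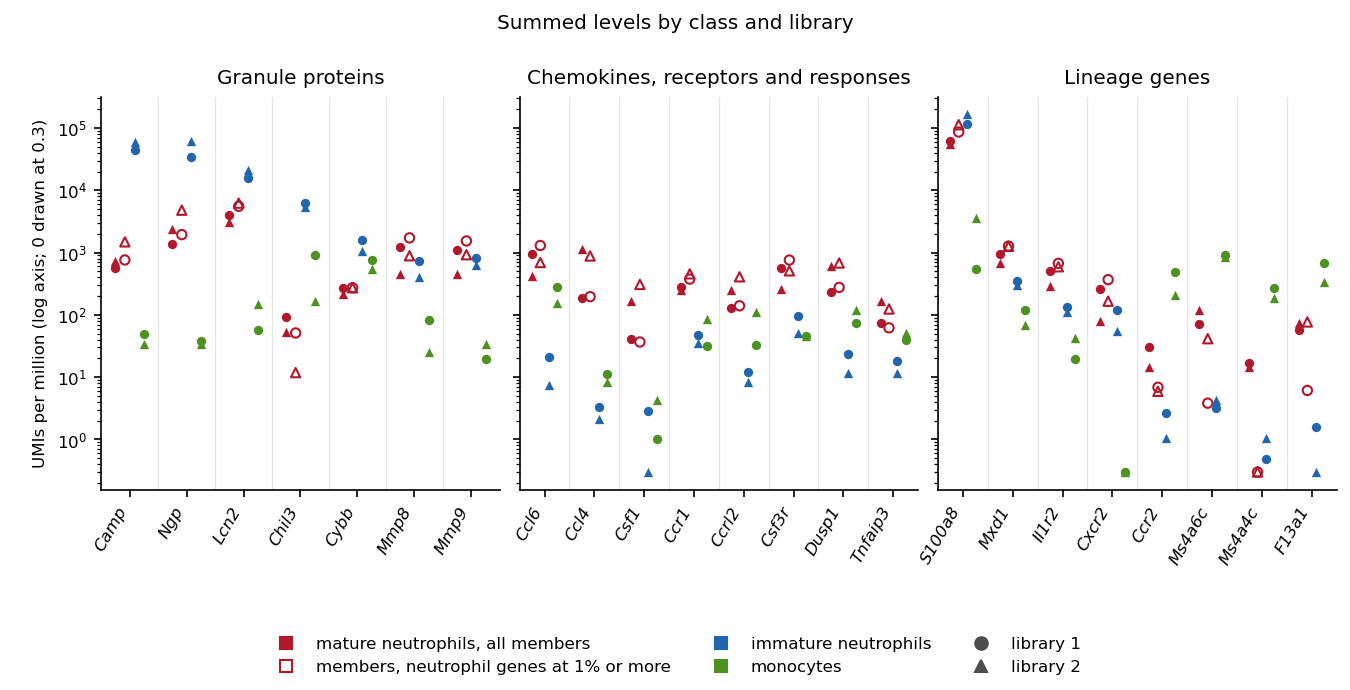
Summed level of selected genes (vertical log axis, CPM) in members, immature neutrophils, and monocytes of library 1 and library 2, with each point 1 class in 1 library and a level of 0 drawn at 0.3. Camp, Ngp, and Chil3 are lower in members than in immature neutrophils in both libraries, and Ccl6, Ccl4, and Csf3r are higher.

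Chemokine and cytokine genes were higher. Of 10 tested, 4 were higher in all members (Ccl3, Ccl4, Ccl6, and Csf1) and 8 in neutrophil-rich ones (also Il1b, Il1rn, Tnf, and Osm), with 0 lower, and the median log2 fold change was 5.22 and 3.95. Over members with 2 of Retnlg, Stfa2l1, and Asprv1, 4 were higher, and over those with Retnlg at 2 UMIs or more, 3. Cxcl2 is a rule gene, so genes that vary with it in the same cells, such as Ccl3 and Ccl4, were tied to the gate. Ccl6, a chemokine of myeloid cells, was at 1299 and 693 CPM in neutrophil-rich members and 20.8 and 7.43 CPM in immature neutrophils (log2 fold change 5.25, SE 0.82, adjusted p = 0.018 over all members, and neutrophil-rich 6.01, SE 0.82, adjusted p = 0.0055). Ccl4, an inflammatory chemokine, was at 196 and 882 CPM against 3.32 and 2.12 CPM (log2 fold change 7.49, SE 1.23, adjusted p = 0.020 over all members, and neutrophil-rich 7.21, SE 1.04, adjusted p = 0.0057). Member levels of Ccl4 in library 2 were several times those in library 1, but both lay far above the immature class.

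Csf1, the growth factor of macrophages, was at 36.7 and 308 CPM in neutrophil-rich members against 2.83 and 0 CPM (log2 fold change 5.32, SE 1.01, adjusted p = 0.023 over all members, and neutrophil-rich 5.97, SE 1.05, adjusted p = 0.0075). Il1b, the inflammatory cytokine interleukin 1β, was at 374 and 1635 CPM against 20.5 and 9.55 CPM, and its log2 fold change was 5.80 (adjusted p = 0.067) over all members and 5.71 (adjusted p = 0.030) over neutrophil-rich ones, so that the call was made only without the members under 1%. Il1rn, its natural antagonist, was called in neutrophil-rich members, at 3.17 (adjusted p = 0.025) against 2.32 (adjusted p = 0.10) over all members, where it was called with the replicate block (2.05, adjusted p = 0.020). Wfdc17, a small secreted protein of activated myeloid cells, was among the 10 genes with the largest increase, at 557 and 811 CPM against 8.98 and 0 CPM (log2 fold change 6.01, SE 1.08, adjusted p = 0.027 over all members, and neutrophil-rich 6.75, SE 1.03, adjusted p = 0.0067).

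Receptors followed the same direction. Of 12 tested, 5 were higher in all members (Cxcr4, Ccr1, Ccrl2, Csf3r, and Tnfrsf1b) and 6 in neutrophil-rich ones (also Il1r2), with 0 lower. Csf3r, Cxcr2, and Il1r2 are among the 12 genes that chose the neutrophil-rich set, so their values in it are a description. Csf3r, the receptor for granulocyte colony-stimulating factor, was at 759 and 509 CPM in neutrophil-rich members and 96.3 and 50.9 CPM in immature neutrophils (log2 fold change 2.16, SE 0.47, adjusted p = 0.044 over all members, and neutrophil-rich 3.02, SE 0.47, adjusted p = 0.0075). Cxcr4, the receptor that retains neutrophils in bone marrow, was at 549.8 and 900.2 CPM against 167 and 134 CPM (log2 fold change 1.53, SE 0.33, adjusted p = 0.043 over all members, and neutrophil-rich 2.05, SE 0.34, adjusted p = 0.0092). Cxcr2, the receptor for release from bone marrow, was at 368 and 166 CPM against 121 and 55.2 CPM, with a log2 fold change of 0.70 (adjusted p = 0.55) over all members and 1.58 (adjusted p = 0.11) over neutrophil-rich ones, which is not a call. The log2 fold change of Ccr1, a receptor for inflammatory chemokines, was 2.32 (adjusted p = 0.037), that of Ccrl2, a chemerin-binding receptor, 3.85 (adjusted p = 0.028), and that of Tnfrsf1b, a receptor for tumor necrosis factor, 3.06 (adjusted p = 0.012).

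Immediate early genes and genes of the NF-κB response were higher as a group, 7 of 12 in all members (median log2 fold change 2.54) and 9 of 12 in neutrophil-rich ones (median 2.27), with 0 lower. Fewer were higher over members with 2 of Retnlg, Stfa2l1, and Asprv1 (5 of 12) and over those with Retnlg at 2 UMIs or more (4 of 12). The phosphatase gene Dusp1 was at 276 and 681 CPM against 23.6 and 11.7 CPM in immature neutrophils (log2 fold change 4.20, SE 0.60, adjusted p = 0.012, and neutrophil-rich 4.47, SE 0.54, adjusted p = 0.0038). Ier3, an early response gene, had a log2 fold change of 3.78 (adjusted p = 0.035), the AP-1 subunit genes Fos and Junb 3.40 (adjusted p = 0.042) and 2.79 (adjusted p = 0.021), and the NF-κB inhibitor genes Nfkbia and Tnfaip3 1.54 (adjusted p = 0.041) and 2.63 (adjusted p = 0.025).

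Among pattern receptors, Tlr2, Nlrp3, and Clec4n were higher both ways, and Clec4a2 was lower over all members only (-1.5, adjusted p = 0.046, and neutrophil-rich -0.86, adjusted p = 0.16). Of 11 transcription factors, Cebpe was the only call in all members. In neutrophil-rich members Cebpb, which drives granulopoiesis in stress, was higher at 2.61 (adjusted p = 0.027), as was Klf2 at 1.60 (adjusted p = 0.035). Mxd1, an antagonist of MYC, was at 1.80 (adjusted p = 0.021) in that set. Because Mxd1 is among the genes that chose the neutrophil-rich set, its value there is a description. With the replicate block, Cebpb was higher over all members too, at 2.19 (adjusted p = 0.0072), and Gfi1 lower, at -2.87 (adjusted p = 0.027). Of 11 interferon response genes, Ifitm1 was higher both ways (5.02, adjusted p = 0.018 over all members) and Ifitm6 lower over all members only (-1.83, adjusted p = 0.030, and neutrophil-rich -0.99, adjusted p = 0.11). Of 5 stefin A genes, Stfa2 and Stfa3 were higher in neutrophil-rich members, at 4.06 (adjusted p = 0.016) and 2.36 (adjusted p = 0.046), and over all members Stfa2 was called with the replicate block (3.32, adjusted p = 0.0091). The stefin genes are near-identical copies on chromosome 16, so reads may be shared or lost among them. Of 10 genes of survival and death, Bcl2l11, which promotes apoptosis, and Gadd45b were higher both ways, at 2.13 (adjusted p = 0.025) and 2.99 (adjusted p = 0.012) over all members, and Mcl1, which prevents it, was higher in neutrophil-rich members at 1.61 (adjusted p = 0.021) and, with the replicate block, over all members at 1.08 (adjusted p = 0.032).

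The most abundant neutrophil genes did not pass the test between the 2 stages. S100a8 and S100a9, the subunits of calprotectin, had log2 fold changes of -1.64 (adjusted p = 0.23) and -1.34 (adjusted p = 0.34) over all members and -0.72 (adjusted p = 0.57) and -0.44 (adjusted p = 0.75) over neutrophil-rich ones. Of the 7 S100 genes, 3 were higher over all members and 2 over neutrophil-rich ones. S100a6 and S100a4, other calcium-binding proteins, were higher both ways, S100a6 at 1.56 (adjusted p = 0.030) and S100a4 at 6.1 (adjusted p = 0.0051) over all members. S100a4 was at 135 and 383 CPM in all members and 10.7 and 213 CPM in neutrophil-rich ones (4.69, adjusted p = 0.024), and it was not called over members with 2 of Retnlg, Stfa2l1, and Asprv1 (2.75, adjusted p = 0.23) or with Retnlg at 2 UMIs or more (4.56, adjusted p = 0.13). The calls of Lcn2, Fos, and Nfkbia were absent over both of these sets, and that of Cxcr4 over the second. Of 16 cell cycle genes, 3 were lower over all members (Cdk1, Hmgb2, and Ube2c) and 9 over neutrophil-rich ones, with medians of -1.46 and -2.07 and 0 higher. The 9 ribosome biogenesis genes had medians of 1.52 and -0.63, and Ncl, Npm1, Fbl, and Nop58 were higher over all members with the replicate block. The mitotic kinase gene Cdk1 was at 17.6 and 17.8 CPM in neutrophil-rich members and 152 and 154 CPM in immature neutrophils (log2 fold change -2.20, SE 0.39, adjusted p = 0.026 over all members, and neutrophil-rich -3.21, SE 0.39, adjusted p = 0.0039).

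Genes of the monocyte and macrophage list were higher in members than in immature neutrophils, fewer of them without the members under 1%. Of 16 genes, 11 were higher over all members (median log2 fold change 3.56), 5 over neutrophil-rich ones (F13a1, Cd68, Ctss, Mpeg1, and Csf1, median 2.22), and 3 over members with 2 of Retnlg, Stfa2l1, and Asprv1 (median 0.51). Calls of Ccr2, Ms4a6c, Ms4a4c, Ly86, Adgre1, and Fn1 were present over all members and absent over neutrophil-rich ones. The 10 genes with the largest increase over all members were Prss34, Mcpt8, Ccl4, S100a4, Wfdc17, Col11a1, Fn1, Ccl6, Ccl3, and S100a10. Prss34 was at 666 and 751 CPM in all members and 1.53 and 0 CPM in neutrophil-rich ones, Mcpt8 at 543 and 232 CPM and 0 and 0 CPM, and Col11a1, a cartilage collagen, at 165 and 1023 CPM and 6.12 and 0 CPM. These 3 genes thus came almost wholly from the members under 1%. S100a10, a partner of annexin A2, was at 106 and 983 CPM and 22.9 and 65.1 CPM, and its log2 fold change of 5.11 (adjusted p = 0.035) over all members was 1.45 (adjusted p = 0.15) over neutrophil-rich ones. The other gene lists, with the members under 1% left out, had no called gene for B cells, erythroid cells, stromal cells, or basophils, and 1 of 3 tested T and NK cell genes (Nkg7) was lower. With the replicate block, the hemoglobin genes Hbb-bs and Hbb-bt were higher over all members, at 0.95 (adjusted p = 0.030) and 1.02 (adjusted p = 0.027).

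Levels along Ltf, the specific granule gene that separates the stages, were followed in bins of neutrophil-rich members and immature neutrophils. The bins share their cells' depth and the gate on Ltf, so they are a description. In library 1, Camp fell at every step, from 52913 CPM in 293 cells with 100 or more Ltf UMIs through 31703 and 7333 CPM in immature cells with fewer to 3442, 1362, and 395 CPM in members with 2 to 4, 1, and 0 Ltf UMIs. Chil3 dropped earlier, from 8155 CPM in the first bin to 380.3 CPM in immature cells with 5 to 19 Ltf UMIs. Retnlg rose first, from 1109.6 CPM to 27982 CPM in immature cells with 5 to 19 Ltf UMIs, and was at 36564, 43974, and 34072 CPM in the member bins. Mmp8 was lowest in the first bin (277 CPM), highest in the 15 members with 2 to 4 Ltf UMIs (2352 CPM), and lower again in members without Ltf (1612 CPM).

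Csf3r and Cebpb kept rising through the members of library 1. From the first bin to the last, Csf3r went through 61.0, 135, 309.6, 420.3, 634, and 815 CPM. Cebpb rose from 232 CPM to 1756 CPM over the same bins. In library 2, where 4 of the 6 bins held 2 to 6 cells, Camp fell from 67891 to 809 CPM, Csf3r went from 16.5 to 679.7 CPM, and Retnlg from 1724 to 28040.2 CPM. Retnlg was highest in library 2 in the 4 immature cells with 5 to 19 Ltf UMIs (42349.6 CPM) and fell through the member bins, at 38894, 32753, and 28040.2 CPM. Between these ends, Camp fell at every step in library 2 as well, while Csf3r and Cebpb did not rise at every step.

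**Figure D3:**
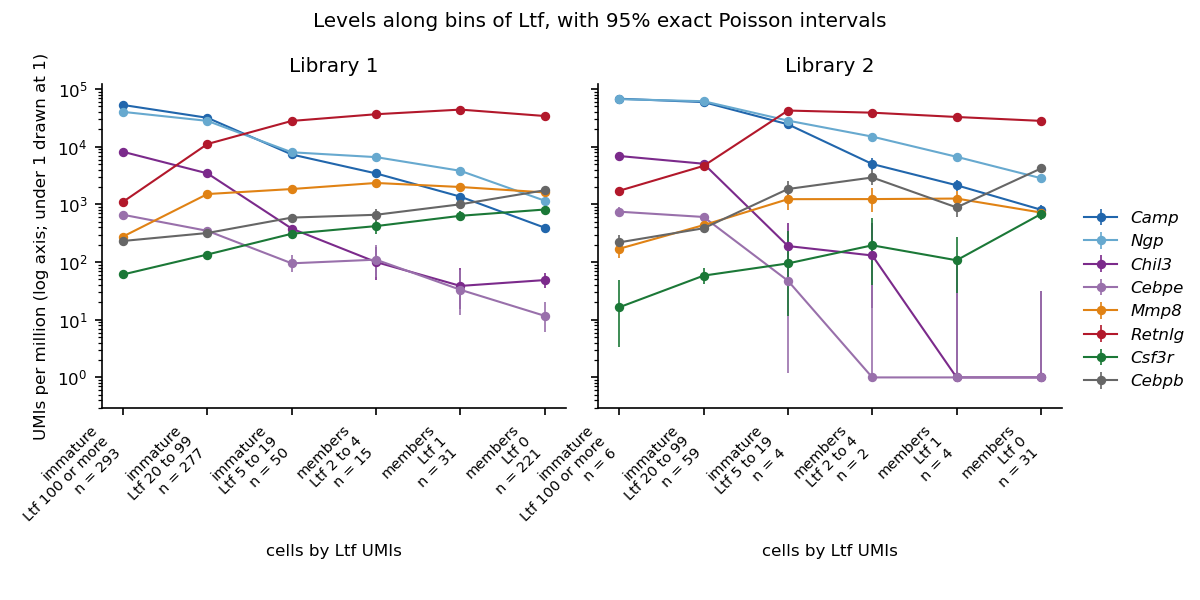
Level of each gene (vertical log axis, CPM, with values under 1 drawn at 1) in cells binned by Ltf UMIs (horizontal axis, immature neutrophils with 100 or more at the left, neutrophil-rich members with 0 at the right), 1 panel per library, with bars for 95% exact Poisson intervals. Camp, Ngp, and Chil3 are lower at the right end than at the left, and Retnlg and Csf3r are higher, in both libraries.

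Against monocytes, the question was whether the members could be a kind of monocyte. Members had far more RNA of nearly the whole neutrophil list and less of several monocyte genes. Of 9042 genes, 330 were higher in all members (3.65%) and 57 were lower (0.63%), and with neutrophil-rich members 948 of 8571 were higher (11.1%) and 1168 lower (13.6%). Members with 2 of Retnlg, Stfa2l1, and Asprv1 gave 8.71% higher and 8.42% lower, and those with Retnlg at 2 UMIs or more gave 5.9% and 2.58%. With a replicate block for the library, 613 genes were higher and 196 lower in all members.

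Of the 12 neutrophil genes, 11 were higher and 0 lower over all members (median log2 fold change 5.30), and the same counts were found with Retnlg at 2 UMIs or more and with 2 of Retnlg, Stfa2l1, and Asprv1. The gene that was not called was Cebpe (0.50, adjusted p = 0.77). S100a8 was at 61547 and 55342 CPM in all members and 555 and 3534 CPM in monocytes (log2 fold change 5.22, SE 0.84, adjusted p = 0.012), and S100a9 at 96487 and 58761 CPM and 423 and 2900.0 CPM (log2 fold change 5.93, SE 0.90, adjusted p = 0.0088). Monocytes of library 2 had more of both than those of library 1, but both stayed below the members.

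Receptor genes of the neutrophil lineage were higher than in monocytes. Csf3r was at 557 and 258 CPM in all members and 45.4 and 46.5 CPM in monocytes (log2 fold change 3.59, SE 0.51, adjusted p = 0.0073). Cxcr2 had 0 UMIs in the monocytes of either library and 264 and 81.2 CPM in members, at least 172-fold higher with a floor of 3 UMIs over all monocytes, and the formyl peptide receptor gene Fpr1 was at least 44.6-fold higher by the same floor. Ly6g, the surface antigen that marks mouse neutrophils, was at 268 and 89.9 CPM against 0 and 8.45 CPM (log2 fold change 7.60, SE 1.5, adjusted p = 0.022). Il1r2, the decoy receptor for interleukin 1, was at 4.24 (adjusted p = 0.0043), Trem1, an amplifier of inflammatory signals, at 3.83 (adjusted p = 0.0088), and Mxd1 at 3.52 (adjusted p = 0.0036).

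Of 12 specific granule genes, 6 were higher and 0 lower over all members, and over neutrophil-rich members 8 were higher and Chil3 lower. With the replicate block, Chil3 and Cybb were lower over all members. Camp was at 558 and 733 CPM in all members against 49.0 and 33.8 CPM in monocytes (log2 fold change 4.34, SE 0.40, adjusted p = 0.0023), so that a gene lower than in immature neutrophils still lay above monocytes. For Ngp the log2 fold change was 6.11 (adjusted p = 0.0023) and for Lcn2 5.55 (adjusted p = 0.0023). Lyz2, lysozyme, which both lineages make, was at 5941 and 9808 CPM against 18361 and 16876 CPM and was not called (-0.75, adjusted p = 0.36). Of 11 gelatinase granule and secretory vesicle genes, 6 were higher over all members and 8 over neutrophil-rich ones, with 0 lower. Mmp9 was at 1101 and 458 CPM against 19.9 and 33.8 CPM (log2 fold change 5.39, SE 0.55, adjusted p = 0.0023) and Mmp8 at 1238 and 446 CPM against 82.6 and 25.4 CPM (log2 fold change 4.32, SE 0.67, adjusted p = 0.010).

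Of 5 tested stefin A genes, 3 were higher (Stfa1, Stfa2, and Stfa3) over all members and 5 over neutrophil-rich ones, with a median of 7.28, or 6.65 with genes at 0 in monocytes set to their bound. Stfa2 had 0 UMIs in monocytes and was at least 101-fold higher. The 10 genes with the largest called increase were Prss34, Mrgpra2b, Stfa1, Mcpt8, G0s2, Lrg1, Mirt2, Il1f9, Wfdc21, and Chil1. Apart from the basophil genes Prss34 and Mcpt8, all were higher in neutrophil-rich members too. G0s2, an inhibitor of lipolysis, was at 657 and 478 CPM in all members against 3.06 and 0 CPM in monocytes (log2 fold change 8.24, SE 0.66, adjusted p = 0.0014). Mrgpra2b, a G protein-coupled receptor, had 0 UMIs in monocytes and was at least 108-fold higher. The log2 fold change was 8.16 (adjusted p = 0.0026) for Lrg1, a leucine-rich glycoprotein of neutrophil granules, and 6.64 (adjusted p = 0.042) for Chil1, a chitinase-like protein.

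On the side of the monocyte list, 4 of 16 genes were lower and 1 (Csf1) higher over all members (median -0.95). Of the same genes, 7 were lower over neutrophil-rich members (median -2.03), and 13 over members with 2 of Retnlg, Stfa2l1, and Asprv1 (median -4.15). Both subsets were chosen on neutrophil genes, and the first left out 7 and 2 members that passed the monocyte gate. The larger decreases in them are therefore a description. Ccr2, the receptor that brings monocytes out of bone marrow, was at 31.0 and 14.5 CPM in all members and 6.88 and 5.92 CPM in neutrophil-rich ones, against 485 and 207 CPM in monocytes (log2 fold change -3.40, SE 0.60, adjusted p = 0.016, and neutrophil-rich -4.99, SE 0.66, adjusted p = 0.0010). Ms4a6c, a membrane protein of monocytes, was at 3.82 and 41.5 CPM in neutrophil-rich members against 915 and 862 CPM (log2 fold change -2.81, SE 0.38, adjusted p = 0.0060 over all members, and neutrophil-rich -5.44, SE 0.76, adjusted p = 0.0014). F13a1, the coagulation factor XIII subunit made by monocytes, had a log2 fold change of -2.54 (adjusted p = 0.034), and Ms4a4c had -3.41 (adjusted p = 0.0040) with 0 UMIs in neutrophil-rich members. Irf8, the transcription factor of the monocyte branch, was at 19.1 and 11.8 CPM in neutrophil-rich members against 313 and 59.2 CPM, with a log2 fold change of -2.59 (adjusted p = 0.14) over all members and -2.79 (adjusted p = 0.040) over neutrophil-rich ones.

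The 10 genes with the largest called decrease against monocytes were Prtn3, Ms4a4c, Ccr2, Itgb7, H2-DMa, Ms4a6c, Tmsb10, F13a1, Plekho1, and S100a4. Prtn3, the primary granule protease 3, was at 23.4 and 5.80 CPM against 388 and 549.6 CPM (log2 fold change -4.39, SE 0.53, adjusted p = 0.0043). The monocyte gate did not separate stages. Elane, another primary granule gene, had at least 1 UMI in 37 of 119 and 2 of 18 monocytes, against 17 of 287 and 0 of 46 members. The share of precursors in the monocyte class was not tested. H2-DMa, a chaperone of antigen presentation, had a log2 fold change of -2.90 (adjusted p = 0.010), the integrin gene Itgb7 -3.32 (adjusted p = 0.023), and the actin-binding Tmsb10 -2.59 (adjusted p = 0.039). Cybb and Il1b did not differ past the threshold, at -1.02 (adjusted p = 0.16) and 0.87 (adjusted p = 0.77), but with the replicate block Cybb was lower at -1.02 (adjusted p = 0.028). Of 16 cell cycle genes, 9 were lower, over neutrophil-rich members only. Ribosomal protein genes, a list of 86, took 44989.7 and 46124 CPM in neutrophil-rich members, 68773 and 48612 CPM in immature neutrophils, and 220587 and 227616 CPM in monocytes, while the members under 1% had 275229.9 and 222052 CPM.

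Other lists differed from monocytes as follows. Chemokine and cytokine genes were higher for 4 of 10 over all members (Ccl3, Ccl4, Il1rn, and Csf1) and for 6 over neutrophil-rich ones, where 1 was lower, with Ccl4 at 186 and 1142 CPM over all members and 11.2 and 8.45 CPM in monocytes (log2 fold change 6.40, SE 1.19, adjusted p = 0.019). Receptor genes were higher for 4 of 12 and 7 of 12, pattern receptors for 2 of 11 and 8 of 11, and NF-κB response and immediate early genes for 3 of 12 and 5 of 12. Among transcription factors, Cebpd, Klf2, and Mxd1 were higher both ways, and Cebpa and Irf8 were lower over neutrophil-rich members. Interferon response genes were higher for 3 of 11 and 4 of 11, with Slfn4 at 6.08 (adjusted p = 0.0023), and NADPH oxidase genes for 1 of 6 (Ncf1, 2.61, adjusted p = 0.0073) and 3 of 6. Of 7 S100 genes, 4 were higher both ways and S100a4 was lower both ways. In neutrophil-rich members only, Gadd45b was higher and Bax lower among 10 genes of survival and death, and Npm1 and Nhp2 were lower among 9 of ribosome biogenesis. The primary granule list had 1 gene higher (Cd63) and 1 lower (Prtn3) over all members and 4 lower (Mpo, Prtn3, Ctsg, and Ctsc) over neutrophil-rich ones. In the lists of other cells, Mcpt8, Cpa3, and Prss34 of the basophil list were higher over all members only, Nkg7 of the T and NK cell list was higher over all members only, Cd3d of the same list and Cxcl12 of the stromal list were higher over neutrophil-rich members, and no B cell or erythroid gene was called. With the replicate block, the B cell genes Cd79a, Igkc, Ebf1, and Vpreb3 and the erythroid genes Hbb-bs, Hbb-bt, Hba-a1, Hba-a2, and Slc4a1 were higher over all members.

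Within the neutrophil-rich members, cells with and without Cxcl2 differed in other genes. Cxcl2 reached 2 UMIs in 57 and 19 cells and was at 0 in 185 and 15. Since Cxcl2 is a rule gene, the ratios are a description of these cells with 95% counting intervals. Ccl4 was 6.50 (4.81 to 8.85) and 33.5 (12.8 to 124) times the level without Cxcl2, Ccl3 8.87 and 15.2 times, and Il1b 4.14 and 4.43 times. Among early genes, Dusp1 was 4.13 and 9.67 times and Ier3 2.57 and 7.11 times the level without Cxcl2. The ratio was smaller for Fos, at 1.29 (0.973 to 1.69) and 2.79 (1.37 to 6.12), and for the cytokine antagonist Il1rn, at 1.10 (0.781 to 1.52) and 2.63 (1.77 to 3.98), and both intervals held 1 in library 1.

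Retnlg and granule genes went the other way. Retnlg is itself a rule gene, and members without Cxcl2 had to pass the gate on other rule genes. The gate alone can therefore lower the Retnlg ratio, and how much of it came from the gate was not tested. The ratio was 0.38 (0.37 to 0.392) and 0.502 (0.473 to 0.533) for Retnlg, 0.0811 and 0.0986 for Camp, 0.135 and 0.157 for Ngp, and 0.371 and 0.416 for Mmp8. For Csf3r the ratio was 1.21 (1.05 to 1.40) and 0.863 (0.544 to 1.37), close to 1, and so was Ccl6 at 1.04 and 1.33. Both libraries gave the same direction for each gene named here except Csf3r, whose interval held 1 in library 2. The summed RNA of 8 erythroid genes moved with this division in library 1, at 84076 CPM with Cxcl2 and 39245 CPM without, and hardly in library 2, at 539.8 and 502 CPM, and its part in the ratios was not tested.

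**Figure D4:**
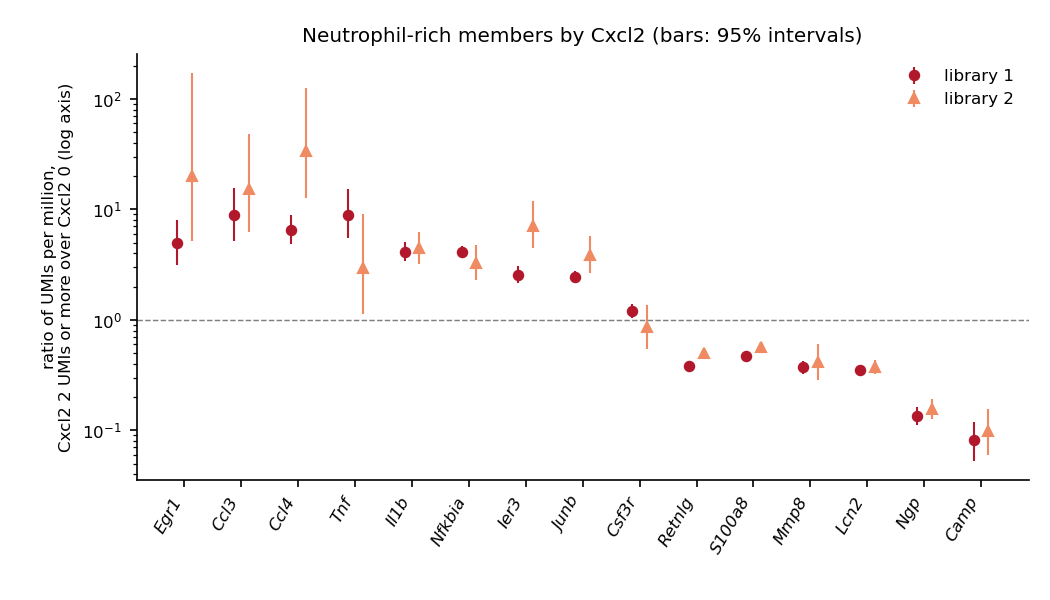
Ratio of the summed level (vertical log axis) in neutrophil-rich members with 2 or more Cxcl2 UMIs over those with 0, by gene, with 1 point per library and bars for 95% counting intervals. Egr1, Ccl3, Ccl4, Tnf, Il1b, Nfkbia, Ier3, and Junb lie above 1, and Retnlg, Camp, Ngp, and Mmp8 lie below 1 in both libraries.

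The libraries also differed in several of these genes. Cxcl2 was at 756 CPM in neutrophil-rich members of library 1 and 4507 CPM in library 2, a ratio of 5.97 (5.42 to 6.56). The ratio was 7.93 (5.81 to 10.8) for Ccl3, 4.51 (3.66 to 5.54) for Ccl4, 4.37 (3.76 to 5.08) for Il1b, and 14.3 (11.6 to 17.7) for Cd14, the co-receptor of lipopolysaccharide. Immature neutrophils did not show this for Ccl4 (0.639, 0.0736 to 2.54) or Il1b (0.465, 0.209 to 0.904), and Cd14 differed less in them (1.90, 1.45 to 2.45). In B cells of library 2, the early genes Fos and Ier3 were 6.04 and 3.78 times and Ccl4 124 times the level of library 1, whereas Cxcl2 (1.32, 0.45 to 3.49) and Il1b (0.65, 0.371 to 1.08) had intervals that held 1. In immature neutrophils Fos and Ier3 were lower in library 2 (0.555 and 0.435 times). Retnlg differed little (0.844, 0.82 to 0.869), as did S100a9 (0.884), whereas Ngp was higher in library 2 (2.47) and Mmp8 lower (0.516). With 1 library on each side, these ratios have no replicate check.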

How the data were processed

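The authors aligned and counted the reads of each library and deposited UMI counts per gene and cell barcode as raw counts, neither normalized nor pooled, with Cell Ranger 6.1.2 and mm10 named in the submitters' processing notes. The methods name only a human genome for alignment, so the mouse annotation behind the counts is not given in the sources used here. The files list 32288 features, 32285 mouse genes and 3 reporters, and GENCODE M21 (GRCm38) holds 32158 of the mouse identifiers. Promoter sequences come from RefSeq on GRCm38.p6.

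Members, gene lists, and tests were chosen with earlier results of these data known. Gates were applied to raw counts in Python 3.11.15 (NumPy 2.4.6, SciPy 1.17.1, pandas 2.3.3), and figures were drawn with Matplotlib 3.10.9. Members that also passed the monocyte gate (26 and 6) stayed members. Counts were summed per library and class, filtered with filterByExpr, scaled by TMM, and tested with edgeR 4.0.16 (R 4.3.3) by the quasi-likelihood test with a threshold of 0.05 on adjusted p. Thinned shares are hypergeometric expectations at 1000 UMIs. Intervals are 95% exact binomial or Poisson intervals, and doublets were not called. The 6 correlations between classes of same-library deviations lay between 0.18 and 0.34, and each library gave all classes, so the library number pairs the sums. The main fit left this pairing out. Only the replicate block held it, so no result of the neutrophil-rich set takes the pairing into account.

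Genes named are the rule genes, genes of the lists, and for each comparison and direction the 10 with the largest log2 fold change among those called, alike in both libraries and at 100 CPM or more in the higher class of both. Genes named in single deep cells were chosen after their values were seen. Alternatives were DESeq2 1.42.0, other scaling, no filter, a replicate block, 3 classes, other gates, and, added after the data were seen, members with Retnlg at 2 UMIs or more and members with neutrophil genes at 1% or more. On data simulated from the mean of each gene over all class sums, with 200 genes changed in each of 5 sets, edgeR recovered 78.0% of changes of 4, 24.4% of 2, and 1.2% of 1 on the log2 scale against immature neutrophils (8629 genes, 7.16% false calls), and 77.6%, 22.4%, and 0.8% against monocytes (8619 genes, 6.11% false calls). Apart from the changed genes, the simulated classes were alike, without a library effect or cells of other lineages. These rates may therefore not carry over to the real data.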

Additional observations from a re-analysis of the deposited data

Results flagged for a closer look

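The labels give the mice as WT, and the gene list of the files held 3 reporter sequences that enter no comparison. Members had tdTomato UMIs in both libraries and EGFP UMIs in library 2. In library 1, 53 tdTomato UMIs fell in 41 of 287 members (14.3%), at most 3 in a cell, beside 15.1% of B cells and 16.4% of all kept cells, and no EGFP UMI fell in the 287 members, which with a floor of 3 counts allows a share of members with an EGFP UMI of up to 1.05% and puts no limit on the share that expressed it. In library 2, 36 tdTomato UMIs fell in 9 of 46 members (19.6%), 22 of them in 1 cell, beside 20.3% of B cells and 29.2% of all kept cells. The 89 EGFP UMIs of library 2 fell in 2 of 46 members, 84 of them in 1 cell, beside 0.448% of B cells and 5.88% of all kept cells. These counts were noted because the labels name no reporter.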

How the results depend on the processing

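The number of genes higher in members than in immature neutrophils (216) was 418 with DESeq2, 536 with the replicate block, 38 with 3 classes, 120 with both gates left out, 386 with cells of other lineages left out, 111 with Retnlg at 2 UMIs or more, and 391 with neutrophil genes at 1% or more. The number lower (129) was 195 with DESeq2, 201 without a filter on low counts, 350 with the block, 33 with 3 classes, 201 with other lineages left out, 70 with Retnlg, and 335 at 1%. Against monocytes, the number higher (330) was 613 with the block, 705 with 2 of Retnlg, Stfa2l1, and Asprv1, 524 with Retnlg, and 948 at 1%, and the number lower (57) was 196 with the block, 25 with 3 classes, 104 with both gates left out, 682 with 2 of the 3 genes, 156 with other lineages left out, 229 with Retnlg, and 1168 at 1%. The number of members in library 1 was 193 with 2 of the 3 genes, 240 with other lineages left out, 220 with 3 of 6 rule genes, and 280 with at most 5% mitochondrial UMIs, and in library 2 it was 22 with 2 of the 3 genes. The share of members with more neutrophil than monocyte UMIs in library 1 was 93.0% without S100a8, S100a9, and Lcn2, 98.5% with both gates left out, 99.6% with Retnlg, and 100% with 2 of the 3 genes, and in library 2 it was 100% with Retnlg and with 2 of the 3 genes. The log2 fold change reversed for Col11a1 (-0.83 at 1%) and for Mcpt8, to -3.92 with 2 of the 3 genes, -0.058 with Retnlg, and -3.97 at 1% against immature neutrophils and to -3.14 and -3.15 against monocytes with 2 of the 3 genes and at 1%. Mmp9 against immature neutrophils, which was not called, changed sign to 0.63 with 2 of the 3 genes, 0.16 with other lineages left out, 0.22 with Retnlg, and 0.67 at 1%, and was between -0.49 and 0.44 when a library was left out. The cause of these changes was not tested beyond the counts of cells given. A part of the named genes was followed through the alternatives, 74 against immature neutrophils and 53 against monocytes. Among the 74, calls were lost for 27 with 3 classes, 13 with Retnlg, 12 with 2 of the 3 genes, 12 with both gates left out, and 5 at 1%. Among the 53, they were lost for 7 with 3 classes and 3 with Retnlg. The replicate block ended no call of these genes and added 8 against immature neutrophils (Cd177, Cebpb, Il1rn, Mcl1, Oasl2, Stfa2, Tnf, and Trem1) and 3 against monocytes (Cybb, Ly86, and Ptprc). Outside this part, it also added calls given above, such as Gfi1, Ncl, and Hbb-bs against immature neutrophils and Chil3, Cd79a, and Hbb-bs against monocytes. Leaving out a library leaves no residual spread, so it gave values without a test, and these moved by more than the spread between libraries for 28 and 24 of the 74 genes and 31 and 29 of the 53 without library 1 and library 2.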
